A study of Mus musculus with 6 samples.

Results

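Expression of the Twist, paired-related homeobox, Snail, Zeb and E-protein transcription factors was read from bead arrays of 2 kinds of mineral-forming cell. The family list named 10 genes: Twist1, Twist2, Prrx1, Prrx2, Snai1, Snai2, Zeb1, Zeb2, Tcf12 and Tcf4. Probes were taken by the gene symbol of the platform's probe table, which gave 15 of the 25697 probes on the array for 8 of the 10 genes; Prrx2 and Snai2 were not analysed here. The cells were GFP-positive cells sorted from C57Bl6/J mice of genotype OC-GFP, in which GFP reports osteocalcin expression; both groups carry it, so the sort itself selected on an osteoblast gene. Osteoblasts came from digested calvaria, the flat bones of the skull, in 3 samples of 6 mice each, aged 6, 5 to 6 and 6 to 7 weeks for replicates 1, 2 and 3. Cementoblasts, which lay down the mineral layer of the tooth root, came from digested extracted molars, in 3 samples of 7, 10 and 6 mice, aged 6 to 7, 5 to 6 and 6 to 7 weeks. All samples mixed the sexes, and the calvarial digest differed in that a first fraction of 20 min was discarded. Each sample is a pool, and whether skulls and molars came from the same animals is not stated, so p-values measure the spread between pools.

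Twist1 and Twist2 are closely related basic helix-loop-helix proteins that bind DNA as dimers with the E proteins Tcf12, Tcf4 and Tcf3, at a short sequence called the E-box, and the Id proteins block such dimers by taking up the E proteins. In the skull Twist proteins hold back osteoblast differentiation, and loss-of-function variants of human TWIST1 and TCF12 cause early fusion of the coronal suture. Prrx1 and Prrx2 are homeobox factors of limb and facial mesenchyme. Snai1, Snai2, Zeb1 and Zeb2 are zinc-finger repressors that bind E-boxes in epithelial genes such as Cdh1, the gene for E-cadherin, and are known for driving the change from epithelial to mesenchymal cells.

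Values are log2 signals after background correction and quantile normalization. A probe was called detected on an array at a detection p under 0.05, and the lowest signal that counted as detected lay between 4.37 and 5.11 depending on the array. Arrays detected 8480 to 13347 of the 25697 probes, with osteoblast replicate 1 lowest, and the small number of arrays limits the precision. Of 8 markers that osteoblasts and cementoblasts share, each array detected 7 or 8, and Col1a1, Col1a2, Bglap, Alpl, Ibsp and Sp7 were detected on all 6. Col1a2 was lower on every cementoblast array, at 10.61 to 12.46 against 12.60 to 13.11 (difference -1.47, limma adjusted p = 0.502). The other markers of the list overlapped between the groups. As shared markers, they do not tell the 2 cell types apart. The arrays differed within the groups in markers of other cells. Keratin 14 had signals of 11.57 and 11.18 on the first cementoblast arrays and of 4.47 on replicate 3, where none of 8 endothelial markers was detected. The leading results are therefore given array by array.

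Of the 15 probes, 9 were detected on all 6 arrays, 2 on none, and 12 passed the filter of detection on at least 3 arrays. The 12 that passed covered all 8 genes, and the brightest probe of each gene stood for it in the comparison. The promoters of Twist2 and Prrx1, the genes whose groups did not overlap, are shown here with that of Twist1, the close relative of Twist2. That of Snai1 is shown as well, and it alone among the promoters shown holds an E-box. Each runs from 250 bases before to 50 bases after the start of transcription, taken from RefSeq on GRCm38.p6. Capitals mark every match of the motifs searched on both strands: CANNTG (the E-box), CAGGTG or CACCTG (the E-box form bound by Snail and Zeb factors, which also counts as the former), TAATTA, a core that homeodomain proteins bind, CCAAT or ATTGG, and TATAAA or TTTATA.
Twist2, chr1:91801211-91801510, plus strand: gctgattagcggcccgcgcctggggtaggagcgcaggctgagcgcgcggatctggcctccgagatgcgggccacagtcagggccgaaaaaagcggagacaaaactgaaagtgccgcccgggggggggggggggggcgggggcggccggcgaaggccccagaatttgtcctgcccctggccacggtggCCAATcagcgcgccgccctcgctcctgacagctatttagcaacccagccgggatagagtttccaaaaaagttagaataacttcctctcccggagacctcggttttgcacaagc
Twist1, chr12:33957421-33957720, plus strand: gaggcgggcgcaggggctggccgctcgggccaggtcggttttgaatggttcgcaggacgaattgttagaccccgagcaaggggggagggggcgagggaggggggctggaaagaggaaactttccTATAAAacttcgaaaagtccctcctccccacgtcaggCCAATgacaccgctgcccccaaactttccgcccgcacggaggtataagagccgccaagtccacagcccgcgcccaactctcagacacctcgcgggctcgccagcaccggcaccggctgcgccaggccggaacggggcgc
Prrx1, chr1:163313601-163313900, minus strand: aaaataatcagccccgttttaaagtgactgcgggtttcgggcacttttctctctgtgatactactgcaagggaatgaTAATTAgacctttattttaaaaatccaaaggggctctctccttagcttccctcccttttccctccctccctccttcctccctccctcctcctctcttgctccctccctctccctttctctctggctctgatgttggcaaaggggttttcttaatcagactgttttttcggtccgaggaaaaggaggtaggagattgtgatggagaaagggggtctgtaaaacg
Snai1, chr2:167537945-167538244, plus strand: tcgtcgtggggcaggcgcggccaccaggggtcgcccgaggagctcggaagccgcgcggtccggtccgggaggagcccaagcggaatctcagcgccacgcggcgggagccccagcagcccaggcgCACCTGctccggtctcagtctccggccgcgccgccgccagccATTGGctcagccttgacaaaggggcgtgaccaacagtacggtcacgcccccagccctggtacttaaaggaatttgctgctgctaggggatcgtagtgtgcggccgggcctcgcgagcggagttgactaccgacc
No CANNTG lay in the windows of Twist2, Twist1 and Prrx1, whereas 72.3% of the 32851 promoter windows of that table hold at least 1. Snai1 held 1, a CACCTG whose first base lies 126 bases before the start, and 20.2% of all windows hold that form on either strand. Of the members not shown, the Tcf12 windows held 1, 2 and 1 CANNTG, none of that form, and the Zeb2 windows held none. Twist1 and Twist2 each held a CCAAT, 89 and 63 bases before the start, a motif of 37.4% of windows. Twist1 also held a TATAAA, at 126 bases before the start, found in 13.6% of windows. Prrx1 held a TAATTA, found in 5.29%. These are matches of letters, not measured binding sites.

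Twist2 was higher in cementoblasts than in osteoblasts, Prrx1 was lower, and the other 6 genes overlapped between the groups. In these bulk samples fewer cells of a type and less RNA per cell cannot be told apart. The family was put together with earlier results of this same comparison known, so the member values below are a description and carry no test. Non-overlap occurred in 2 of 8 genes here, or 25%, against 11.3% of the 8111 genes tested (5.72% higher and 5.57% lower in cementoblasts), and in 4 of the 12 probes that passed the filter, against 10.9% of all such probes. All but 1 of those 4 probes belong to Prrx1, and the other is the Twist2 probe. In the limma fit over all genes 1 of the 8, Twist2, was called at an adjusted p under 0.05, where 0.321% of all genes were called (0.148% higher, 0.173% lower), and 2 of the 8, Twist2 and Prrx1, lay under an unadjusted p of 0.05, where 6.92% of all genes did. Neither Twist2 nor Prrx1 was called when cementoblast replicate 2 or any single osteoblast array was left out. Nothing is read from these counts, because the genes were picked with them in view. The median difference of the 8 genes, cementoblast minus osteoblast, was -0.20 on the log2 scale, against -0.02 over all genes.

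**Figure D1:**
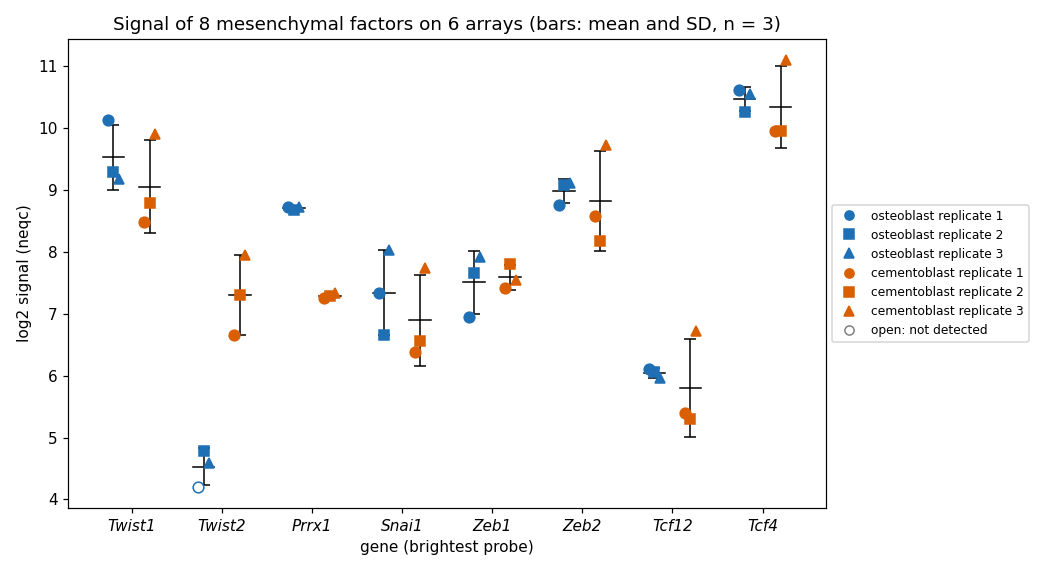
Log2 signal of the brightest probe of 8 genes on each of the 6 arrays, with the mean and SD of each group of 3; open symbols mark arrays where the probe was not detected. Twist2 is higher in all 3 cementoblast samples (6.65 to 7.94 against 4.21 to 4.78), Prrx1 is lower in all 3 (7.25 to 7.33 against 8.68 to 8.72), and the groups overlap for the other 6 genes.

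Twist2 stood at 4.21, 4.78 and 4.60 on osteoblast replicates 1, 2 and 3 and at 6.65, 7.30 and 7.94 on cementoblast replicates 1, 2 and 3. The lowest cementoblast array lay 1.86 above the highest osteoblast array. Its single probe, ILMN_1230558, was detected on all 3 cementoblast arrays and on osteoblast replicates 2 and 3, but not on osteoblast replicate 1, whose detection p was 0.596. The group means were 4.53 ± 0.29 for osteoblasts against 7.30 ± 0.65 for cementoblasts (SD, n = 3 each), a log2 difference of 2.77 with a standard error of 0.36 in the fit. The osteoblast signals lie near the detection limit, and under it on replicate 1, so the size of this difference is taken against a group that was only partly detected. The difference ranged from 2.26 to 3.23 when each array was left out in turn and kept its sign in all 16 alternative settings that could test the gene, the smallest being 1.06 without background correction and 1.64 in the submitters' own normalized values. The bead signals before any normalization were 78.5, 107.4 and 121.4 in osteoblasts and 102.1, 111.7 and 192.0 in cementoblasts, where array medians were 81.2, 95.6 and 111.1 and 82.7, 78.5 and 81.7. Those raw signals overlap between the groups. Among the cementoblasts Twist2 was highest on replicate 3, where Krt14, Krt5, Krt15 and Krt17 were undetected at 4.15 to 4.47 and only Krt18 and the enamel protein gene Ambn of the 11 epithelial markers were detected. That array was the highest cementoblast array for 7 of the 8 genes, and which cells gave the Twist2 signal was not tested.

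Twist1, the better known factor of cranial sutures, did not part the groups. It stood at 10.13, 9.28 and 9.16 in osteoblasts and at 8.47, 8.79 and 9.90 in cementoblasts, detected on every array by its single probe. Cementoblast replicate 3 lay inside the osteoblast range and the other cementoblast arrays lay below it. The means were 9.52 ± 0.53 and 9.05 ± 0.75 (SD, n = 3 each), a log2 difference of -0.47 with a standard error of 0.44. The ratio of Twist2 to Twist1 within each array does not depend on how arrays are scaled to each other by a constant. Background correction and quantile normalization are not such a scaling, so the ratio still depends on them. As the Twist2 log2 signal minus that of Twist1 it was -5.92, -4.50 and -4.57 in osteoblasts and -1.82, -1.49 and -1.96 in cementoblasts, higher on every cementoblast array. The value of osteoblast replicate 1 rests on an undetected Twist2 signal, so no size is given for the shift. The ratio compares the same 2 probes across arrays and says nothing of which gene had more transcripts.

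Prrx1 was lower in cementoblasts on each of its 3 bright probes. The brightest, ILMN_2678094, stood at 8.72, 8.68 and 8.72 in osteoblasts and at 7.25, 7.28 and 7.33 in cementoblasts, detected on all 6 arrays. The groups lay 1.35 apart, far beyond the spread within either. The means were 8.71 ± 0.02 and 7.29 ± 0.04 (SD, n = 3 each), a log2 difference of -1.42 with a standard error of 0.22, or 2.67-fold lower in cementoblasts. A second probe of the same transcript, ILMN_2614463, ran from 8.49 to 8.86 in osteoblasts and from 7.01 to 7.30 in cementoblasts and differed by -1.48. ILMN_3057018, annotated to the other Prrx1 transcript in the table, ran from 7.40 to 7.58 and from 5.84 to 6.43 and differed by -1.30. The fourth probe, ILMN_3134079, belongs to that same transcript and stood near background, at 4.51 to 5.02 in osteoblasts and 4.31 to 5.09 in cementoblasts, detected on 2 and on 1 arrays, where the groups overlapped (-0.23). The difference of the brightest probe ran from -1.44 to -1.39 with each array left out and stayed below 0 in all 17 alternatives, with extremes of -1.79 under 75th percentile scaling and -0.93 without background correction. Its bead signals before normalization were 182.3, 761.3 and 1319 in osteoblasts and 114.7, 111.1 and 149.5 in cementoblasts, all of the former above all of the latter. Osteoblast replicates 2 and 3 were also brighter before normalization for genes that were not lower in cementoblasts. Vim had 376.4, 3598 and 4048 in osteoblasts and 505.1 to 1115 in cementoblasts, with a normalized difference of 0.33. The raw order is thus not free of array brightness.

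**Figure D2:**
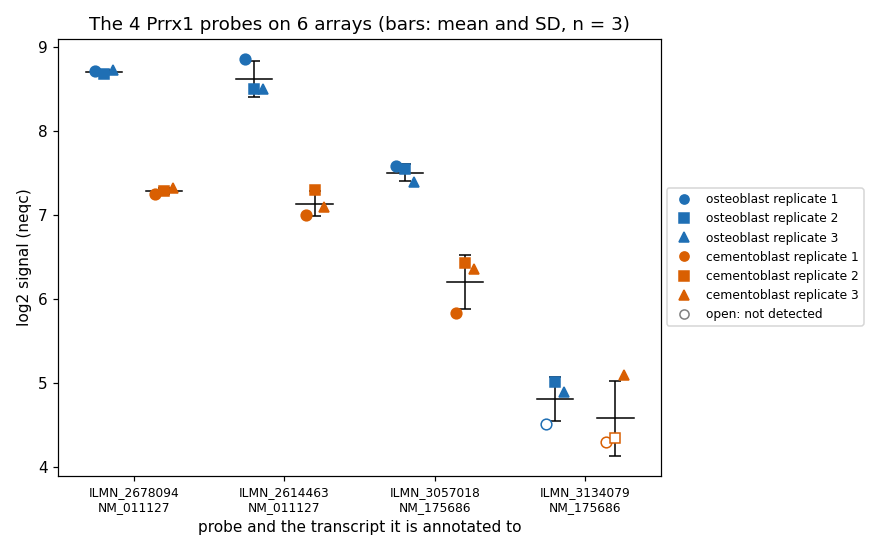
Log2 signal of the 4 Prrx1 probes on each of the 6 arrays, with group means and SD of 3; labels give the probe and its annotated RefSeq transcript, and open symbols mark arrays without detection. On 3 probes all cementoblast arrays lie below all osteoblast arrays, with mean differences of -1.42, -1.48 and -1.30, and the dim probe ILMN_3134079 differs by -0.23 with overlap.

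On their brightest probes the Snail and Zeb repressors overlapped between the groups. Snai1 had signals of 7.33, 6.66 and 8.02 in osteoblasts and 6.38, 6.56 and 7.74 in cementoblasts, a log2 difference of -0.45 with a standard error of 0.47. The spread within each group, an SD of 0.68 and 0.74, exceeded the difference between them. Its other probe, ILMN_1241355, did not pass the filter, with detection on 2 osteoblast arrays and on no cementoblast array. The signals of that probe lay near background, at 4.32 to 4.63 in osteoblasts and 4.17 to 4.26 in cementoblasts, without overlap. Zeb1 had 6.94, 7.65 and 7.92 in osteoblasts and 7.41, 7.81 and 7.54 in cementoblasts, a difference of 0.08 with a standard error of 0.31. All 3 cementoblast arrays lay within the osteoblast range. Zeb2 had 8.75, 9.07 and 9.10 in osteoblasts and 8.57, 8.18 and 9.72 in cementoblasts, a difference of -0.15 with a standard error of 0.41. Its values in cementoblasts thus reached both below and above the osteoblast range. A second Zeb2 probe was detected on no array, at 4.16 to 4.29.

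The E proteins behaved like Zeb2. Tcf12, a dimer partner of Twist proteins, had 6.10, 6.06 and 5.95 in osteoblasts and 5.39, 5.30 and 6.71 in cementoblasts, a difference of -0.24 with a standard error of 0.39. The osteoblast arrays lay close together and the cementoblast arrays fell on either side of them. Of its other probes, ILMN_2722602 was detected on 4 arrays and ran from 4.53 to 4.86 in osteoblasts and from 4.20 to 5.53 in cementoblasts, and ILMN_2976577 was detected on none. Tcf4, an E protein of many tissues, had 10.61, 10.25 and 10.55 in osteoblasts and 9.95, 9.95 and 11.09 in cementoblasts, a difference of -0.14 with a standard error of 0.36. Again 1 cementoblast array was above all osteoblast arrays and the others were below.

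Much of this overlap came from a single array, cementoblast replicate 3. In 7 of the 8 genes it was the highest cementoblast array, where 47.3% of all genes have it highest, and it exceeded the mean of the other cementoblast arrays by a median of 1.20 over the 8 genes against 0.14 over all genes. The excess was 1.37 for Tcf12, 1.35 for Zeb2, 1.27 for Twist1, 1.27 for Snai1, 1.14 for Tcf4 and 0.97 for Twist2, but 0.06 for Prrx1 and -0.07 for Zeb1. Set against the osteoblast means, Twist1, Snai1, Zeb2, Tcf12 and Tcf4 were lower on cementoblast replicates 1 and 2, by values from -1.05 to -0.41, and higher on replicate 3, by values from 0.37 to 0.75. With that array left out, 7 of the 8 genes parted the groups (36.4% of all genes did), 6 of them lower in cementoblasts (22.2% of all genes) and Twist2 higher; Zeb1 still overlapped. In the limma fit without it, Twist2 and Prrx1 were called, at differences of 2.53 and -1.44, where 2.05% of all genes were. Looking at this array on its own was decided after the values were seen.

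**Figure D3:**
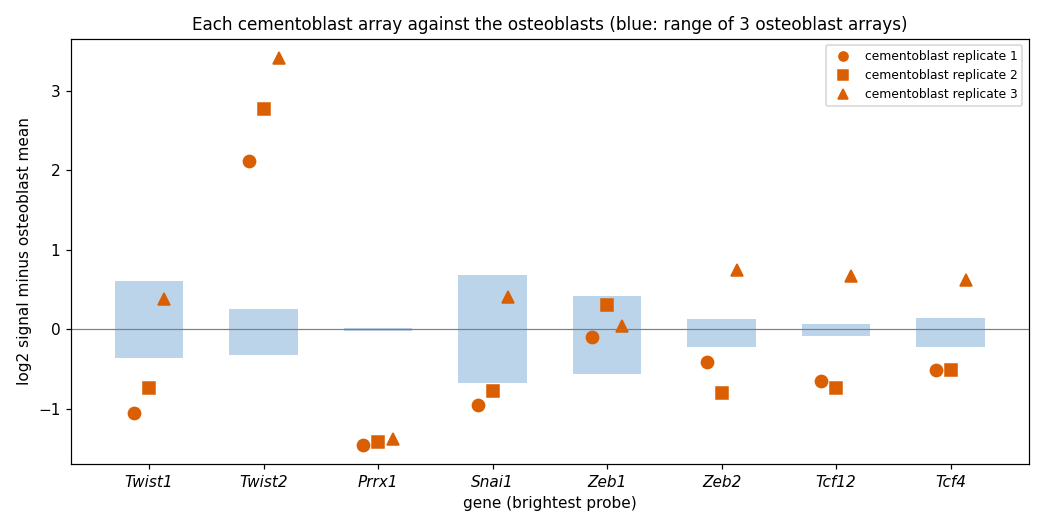
Log2 signal of each cementoblast array minus the osteoblast mean for 8 genes, with the range of the 3 osteoblast arrays as a blue bar. Replicate 3 (triangles) lies above the mean of replicates 1 and 2 for Twist1, Twist2, Snai1, Zeb2, Tcf12 and Tcf4 by 0.97 to 1.37, while the 3 arrays nearly coincide for Prrx1 (-1.45, -1.42 and -1.38).

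Cell type markers moved with the same array. The mean log2 signal of the 8 osteoblast and cementoblast markers was 11.18 on cementoblast replicate 3, 9.81 and 9.36 on replicates 1 and 2, and 10.56, 9.99 and 10.29 in osteoblasts. The cementoblast arrays detected 9, 7 and 2 of 11 markers of oral and dental epithelium, in replicate order, and the osteoblast arrays 1, 3 and 1. Of 7 macrophage markers, cementoblast replicate 3 detected 3, with a mean of 4.98 against 9.30 and 8.15 on replicates 1 and 2, and osteoblast replicate 1 was alike at 5.19, against 9.61 and 8.15 on the other osteoblast arrays. Neutrophil markers had means of 10.10, 8.93 and 7.32 on the cementoblast arrays and of 6.10, 8.79 and 8.50 on the osteoblast arrays. Of 8 endothelial markers, 6, 7 and 0 were detected on the cementoblast arrays and 2, 5 and 7 on the osteoblast arrays. On cementoblast replicate 3 the macrophage genes C1qa, C1qb, Adgre1 and Mrc1 were undetected at 4.10 to 4.20, Lyz2, Cd74 and Cd14 were detected, and the neutrophil genes S100a8 and S100a9 stood at 11.35 and 9.65. The part of these cells in the signals of Twist1, Snai1, Zeb2, which leukocytes also express, Tcf12 and Tcf4 was not tested. B lineage markers had means of 4.59 to 5.04 on all 6 arrays, and skeletal muscle markers were at 4.58 to 5.60 in osteoblasts and 4.21 to 4.33 in cementoblasts. Prrx1 spanned 7.25 to 7.33 over the 3 cementoblast arrays, while the 9 fibroblast and periodontal ligament markers averaged 7.67, 7.81 and 8.09 there and 8.38 to 8.69 in osteoblasts. Thy1 weighed most in that mean, with a difference of -3.39. Of the 7 tested genes of the list 5 lay below 0, and Pdgfra and Pdgfrb lay above, at 0.21 and 0.04. None of the 7 was called. The part of such cells in the Prrx1 signal was not tested.

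**Figure D4:**
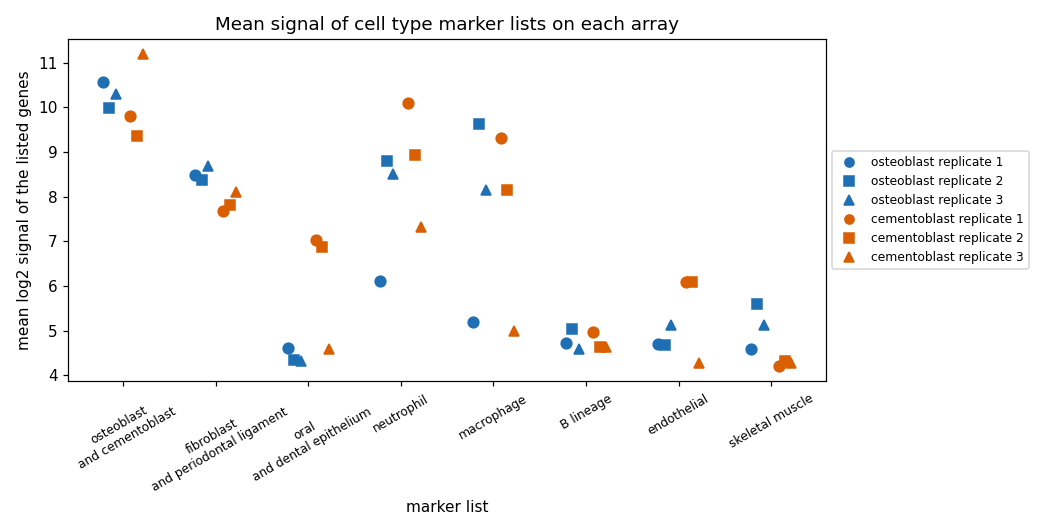
Mean log2 signal of the genes of 8 marker lists on each array; circles, squares and triangles are replicates 1, 2 and 3, in blue for osteoblasts and orange for cementoblasts. Epithelial markers average 7.03 and 6.87 on cementoblast replicates 1 and 2 and 4.58 on replicate 3, where osteoblast and cementoblast markers reach 11.18.

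The partners, relatives and targets of these factors were taken from lists set up with earlier results known, and read from the limma fit over all genes. Their adjusted p is taken over all genes. Because of that choice, calls and counts within the lists are a description, as for the members, and no independent support. Of 4 bHLH partners and inhibitors tested, all Id genes, none passed. Id4, with the smallest p, stood at 4.42, 5.66 and 4.75 in osteoblasts and 6.29, 6.94 and 4.75 in cementoblasts (difference 1.05, limma adjusted p = 0.849, higher on 2 of 3 cementoblast arrays), so that replicate 3 matched the osteoblasts. Among 12 other tissue-restricted bHLH factors on the array, 6 were tested and none passed. Msc, the musculin gene, was nearest, at 6.27, 6.42 and 6.58 in osteoblasts and 5.35, 5.57 and 4.85 in cementoblasts (difference -1.17, limma adjusted p = 0.193, lower on 3 of 3 cementoblast arrays). Hand1, Hand2, Tcf15, Tcf21 and Bhlhe41 were detected on no array. Over these lists of 4 and 6 genes the unadjusted p was under 0.05 for 0 and 1 genes.

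Of 8 paired-class homeobox relatives of Prrx1 on the array, 1 passed the detection filter and 5 were detected nowhere. That gene, Shox2, a homeobox factor of limb and palate, stood at 4.14, 4.37 and 4.44 in osteoblasts and 6.23, 5.90 and 7.08 in cementoblasts. All cementoblast arrays were higher, and the difference of 2.09, with osteoblast replicate 1 undetected, did not pass (limma adjusted p = 0.0675). Alx1 and Otp were each detected on 2 osteoblast arrays and on no cementoblast array, at 4.17 to 5.37 over all arrays.

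Epithelial genes that Snail and Zeb factors repress seldom passed the detection filter. Of 11 on the array, 5 were detected nowhere, 2 were tested, none passed and none was under an unadjusted p of 0.05. Cdh1 was undetected in all osteoblasts and on cementoblast replicate 3, at 4.20 to 4.37, and detected only on the arrays with bright keratins, at 5.58 and 6.04. Cldn1, a claudin of tight junctions, had 4.12, 4.52 and 4.81 in osteoblasts and 5.81, 6.01 and 4.35 in cementoblasts (difference 0.90, limma adjusted p = 0.812, higher on 2 of 3 arrays). Of the 10 zinc-finger and epithelial counterparts, 3 were tested, none passed and none was under an unadjusted p of 0.05. Grhl1, a grainyhead factor, had the smallest p and differed by 0.30 at signals of 4.49 to 5.16 (limma adjusted p = 0.946). Esrp1, an epithelial splicing factor, followed Cdh1, with detection at 6.14 and 6.03 on those arrays alone. Snai3 was detected nowhere.

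Mesenchymal genes of the same programme passed the detection filter throughout. All 13 on the array were tested, 6 lay above 0 and 7 below, the median difference was -0.14 and none passed, nor was any under an unadjusted p of 0.05. Vim, the vimentin gene, had means of 10.49 ± 0.52 in osteoblasts and 10.83 ± 0.32 in cementoblasts (SD, n = 3 each). Cdh2, the gene for N-cadherin, had the smallest p, with 6.41, 5.83 and 6.32 against 5.57, 4.86 and 5.99 (difference -0.71, limma adjusted p = 0.780, overlapping groups). Another Cdh2 probe differed by -0.36. Acta2, the gene for smooth muscle actin, stood at 11.41, 11.89 and 11.69 in osteoblasts and 10.74, 11.16 and 6.51 in cementoblasts, so that here cementoblast replicate 3 was far below the rest (difference -2.19, limma adjusted p = 0.804, lower on 3 of 3 arrays).

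Among 12 tested cranial suture genes, 2 fell and the other 10 did not pass. Over all genes 0.321% were called and 0.173% were called lower. Nothing is read from the count, because the list was chosen with earlier results known. The zinc-finger gene Zic1 stood at 7.67, 7.92 and 7.88 in osteoblasts and 4.23, 4.20 and 4.81 in cementoblasts, detected only on the last of these. It fell, by a fitted 3.41 on the log2 scale whose size rests partly on undetected signals (limma adjusted p = 0.00661, lower on 3 of 3 cementoblast arrays). En1, a homeobox factor, had signals of 6.51, 6.42 and 6.02 in osteoblasts. No cementoblast array detected it (4.13, 4.32 and 4.16). In these normalized values it was at least 2.92-fold lower there (limma adjusted p = 0.0224, lower on 3 of 3 arrays). That bound sets its osteoblast mean against the lowest signal that counted as detected on each cementoblast array, and it holds for this normalization only. The fitted log2 difference was -2.12 here, -1.21 in the submitters' values, -1.17 under 75th percentile scaling and -0.70 without background correction. Under the alternative settings Zic1 was called in 13 of 16 and En1 in 7 of 16, both staying lower in all of them; leaving out cementoblast replicate 2 ended both calls, and that of En1 also ended without cementoblast replicate 1 or any single osteoblast array. The list's median difference was 0.06. The fibroblast growth factor receptor genes, which act beside Twist1 in sutures, differed by 0.08 for Fgfr1, -0.005 for Fgfr2 and -0.50 for Fgfr3. Msx1 and Msx2, homeobox factors of suture and tooth, differed by 0.41 and 0.08. Of 7 tested Twist-linked osteoblast genes none passed and 1 was under an unadjusted p of 0.05, where 6.92% of all genes were. Of the 7, 6 lay below 0, with a median of -0.65, where 52.5% of all genes lay below 0. Runx1, a relative of the osteoblast regulator that Twist proteins restrain, had the smallest p, with 6.42, 7.16 and 6.87 against 6.19, 6.31 and 5.28 (difference -0.89, limma adjusted p = 0.662, lower on 3 of 3 arrays). Its lowest array in each group, osteoblast replicate 1 and cementoblast replicate 3, also had the lowest macrophage mean of that group, at 5.19 and 4.98. The part of leukocytes in the Runx1 signal was not tested.

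The tested genes most like Twist2 in pattern over the 6 arrays were Tbx3, 6330403K07Rik and Col7a1. The measure was the root mean square difference of log2 signals after each gene was centred on its own mean, and it was 0.27, 0.33 and 0.34. Tbx3, a T-box factor, ran from 4.38 to 4.49 in osteoblasts and from 6.95 to 7.62 in cementoblasts, and all 3 genes were, like Twist2, undetected on osteoblast replicate 1. Those most like Twist1 were Lman1, a cargo receptor of the secretory pathway, Marchf8 and Tmem97, at 0.10, 0.13 and 0.13. Lman1 had 8.53, 7.57 and 7.72 in osteoblasts and 6.99, 7.15 and 8.19 in cementoblasts, so that osteoblast replicate 1 and cementoblast replicate 3 were its highest arrays, as they were for Twist1. These likenesses rest on 6 arrays that share the 2 tissues and the array differences described above.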

How the data were processed

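RNA of sorted cells was measured on Illumina bead arrays in 3 osteoblast and 3 cementoblast samples. The deposited non-normalized table gives each probe's intensity on a linear scale. Its detection p-value per probe and array is named so per the file headers. A second deposited table holds values the submitters normalized. The submitters' processing notes name lumi; the sources used here give neither its version nor its settings. Columns were matched to samples by title, or for replicate 3 by tissue code and replicate number.

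The neqc function (limma 3.58.1, R 4.3.3) did background correction, with an offset of 16, then quantile normalization and log2; the negative controls it needs were inferred from the detection p-values. Probes detected (p under 0.05) on at least 3 of 6 arrays were kept, 11198 in all, with the brightest kept probe taken for each of 8111 genes. Of the 25697 probes, 23978 had a single symbol and 1719 had none here. Differences are cementoblast minus osteoblast, fitted by lmFit and eBayes and called at a Benjamini-Hochberg adjusted p under 0.05, taken over the whole table. The fit was tested on simulated data.

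The members, the gene lists and the rule for named genes were chosen with earlier results of these data known. That rule names every member, the called genes of each list (at most 4) or else the one with the smallest p, and the 3 genes most alike the 2 members with the widest range. Other genes of the lists were named after their values were seen. Replicate numbers carry no stated pairing, so no block was used. Alternatives covered the values as the submitters gave them, uncorrected background, scaling to the 75th percentile, other filters, probe choices and variance models, blocks, and leaving out each array.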

Additional observations from a re-analysis of the deposited data

How the results depend on the processing

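The number of genes called over the whole table moved with most settings, and the member calls with it; causes were not tested. Against 26 genes called (12 higher, 14 lower in cementoblasts) and 1 member, Twist2, the submitters' values gave 14 (5 and 9) and no background correction 15 (5 and 10), each with Prrx1 as the member called. Scaling to the 75th percentile gave 2 (0 and 2; 599 at an unadjusted p under 0.05) and no member at an adjusted p, with 2 members at an unadjusted p under 0.05. Without a filter on detection there were 8 (4 and 4, Prrx1 called). Detection on all 6 arrays left 6 (1 and 5), 5022 genes and 0 members, since Twist2 was then not tested; 1 member had an unadjusted p under 0.05. Trend and robust variance gave 40 (17 and 23), array weights 199 (111 and 88) and the title number as a random block 74 (38 and 36), each with 2 members, Twist2 and Prrx1. With the replicate number as a block there were 0 called in limma (0 and 0) and 0 members. At an unadjusted p under 0.05 there were then 568 genes, 2 of them members. Deviations of same-numbered arrays correlated at -0.36, 0.36 and 0.09, too few values to show whether the numbers mark pairs. The sample titles of replicate 2 carry the same number in both groups, as do those of replicate 3, without saying what it marks. Leaving out each array gave 0 to 166 genes (0 to 105 higher, 0 to 61 lower) and 0 to 2 members. Twist2 was the 1 member called without cementoblast replicate 1, both were called without cementoblast replicate 3, and none was without cementoblast replicate 2 or any osteoblast replicate.

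Twist2 stayed above 0 in 16 of 16 alternatives and Prrx1, Twist1 and Snai1 below 0 in 17 of 17. Zeb1 changed sign in 5 of 17, Tcf4 in 2, and Zeb2 and Tcf12 in 1 each. Id4, Msc, Shox2, Grhl1, Cldn1, Cdh2, Zic1, En1 and Runx1, the context genes followed through the alternatives, kept their sign in each one run; Zic1 was called in 13 of 16 and En1 in 7 of 16, while Shox2 was called in 3 of 16 and Msc in 1 of 17.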
